A study of Mus musculus with 30 samples.

Results

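The 7 genes described here, Olfr90, Olfr93, Olfr101, Olfr103, Olfr107, Olfr109 and Olfr116, are odorant receptor (OR) genes that lie near 37 Mb of mouse chromosome 17, beside the major histocompatibility complex (MHC). They are 7 of the 564 OR genes in the table and were taken by name. They were chosen by measured values as well as by position, because Olfr107 and Olfr90 had been seen to part the mice of mixed background into low and high sets. The values of those mice are therefore a description here and carry no p-value for the 7 genes, whereas the inbred mice were tested.

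The study asked how regulatory elements and a large deletion act on OR gene expression, and counted OR transcripts with NanoString probes in RNA of whole olfactory mucosa. There were 30 mice, 6 in each of 5 groups, all 21 days old, with 1 μg of total RNA of 1 mouse in each lane. ΔHxΔP mice were homozygous for the deletions of both the P element and the H element, which are enhancers of OR gene clusters on other chromosomes, and ran on cartridge MK29 beside 6 wild-type companions. Another 6 wild-type mice, companions of the ΔH strain, ran on cartridge MK37. These 18 mice were of mixed C57BL/6J x 129SvEv background, and the labels do not say which parental alleles a given mouse carried on chromosome 17. ΔOlfr7Δ mice, homozygous for a deletion of the Olfr7 cluster on chromosome 9, were of inbred 129SvEv background and ran on cartridge MK38 beside 6 wild-type mice of the strain 129SvEvTac, with the background strain given as 129S6/SvEvTac. Each mutant ran on lanes 7 to 12 and its wild types on lanes 1 to 6, so genotype and lane number cannot be told apart. The wild-type groups held 3 females and 3 males on MK29, 4 females and 2 males on MK37, and 4 females and 2 males on MK38. The ΔHxΔP group held 1 female and 5 males, and the ΔOlfr7Δ group held 2 females and 4 males.

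A mature olfactory sensory neuron expresses, as a rule, a single OR gene from a single allele, so that OR RNA of a whole mucosa adds up over many neurons of different choice. In such bulk RNA fewer neurons of a type and less RNA per neuron cannot be told apart. MHC-linked OR genes form clusters that flank the MHC class I region, are inherited with it as a haplotype, and are known to differ in sequence between strains. OR genes encode G protein-coupled receptors for odorants. The subfamily names of the 7 members in the study's OR table were MOR256 for Olfr90 and Olfr93, MOR250 for Olfr101, Olfr103 and Olfr109, MOR156 for Olfr107 and MOR218 for Olfr116. Some full names there carry a suffix, MOR256-39P for Olfr93, MOR250-2_p for Olfr101 and MOR250-8_p, also MOR250-3, for Olfr103. Whether these genes make a full receptor was not examined.

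The OR table of the study places 18 OR genes on chromosome 17, of which 17 were counted. The 7 members stand between place 2, Olfr90, and place 13, Olfr116. Olfr107 lay 320 kb from Olfr90, with 7 other OR genes of that table between them. Gene order and neighbours below are those of that table, and OR genes missing from it may lie between. Olfr107 lay 69.3 kb from Olfr103 on one side and 60.7 kb from Olfr109 on the other.

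A count in this assay is a count of molecules bound by a capture and a reporter probe, each of 50 bases. The probes of Olfr90 and Olfr107 are printed as the table lists them, because the results turn on these 2 genes, and all their letters are in lower case since no part of them was singled out.

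Olfr90 capture probe: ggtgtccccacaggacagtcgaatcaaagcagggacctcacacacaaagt
Olfr90 reporter probe: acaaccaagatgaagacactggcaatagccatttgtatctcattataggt
Olfr107 capture probe: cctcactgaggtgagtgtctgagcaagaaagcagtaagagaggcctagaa
Olfr107 reporter probe: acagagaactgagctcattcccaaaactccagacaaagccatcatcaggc

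The capture probe of Olfr90 matched the closest probe of any other OR gene, that of Olfr223, at 35 of 50 bases, and its reporter probe matched at most 27 of 50. For Olfr107 the closest matches were 28 of 50 bases, to Olfr147 and Olfr885, for the capture probe and 26 of 50 for the reporter probe. Over the probes of all 7 members the closest matches ranged from 25 to 35 of 50 bases. The comparison covered the probes in the table, without gaps and with an overlap of at least 20 bases, and not the transcripts themselves. Because a probe binds with its own efficiency, counts of different genes are not compared with each other below.

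The 250 bases before the RefSeq start of both genes are shown because the genes moved together from mouse to mouse. They are of the C57BL/6J reference (build GRCm38.p6), 5′ to 3′ on the strand of the gene, with Olfr90 on the minus strand at chr17:37086237-37086486 and Olfr107 on the plus strand at chr17:37405227-37405476.

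Olfr90 upstream: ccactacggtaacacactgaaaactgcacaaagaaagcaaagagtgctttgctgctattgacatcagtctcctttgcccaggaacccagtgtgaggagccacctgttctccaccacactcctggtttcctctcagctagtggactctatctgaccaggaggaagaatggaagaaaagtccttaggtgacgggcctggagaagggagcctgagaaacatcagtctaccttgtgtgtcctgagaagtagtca
Olfr107 upstream: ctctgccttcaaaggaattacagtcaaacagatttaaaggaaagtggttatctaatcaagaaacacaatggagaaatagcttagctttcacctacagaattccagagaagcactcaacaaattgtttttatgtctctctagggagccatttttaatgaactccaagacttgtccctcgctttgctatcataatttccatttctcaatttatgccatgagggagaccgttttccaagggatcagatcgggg

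The windows were searched for the homeodomain core TAATTA, known from OR promoters, which reads the same on the opposite strand, and a match would stand in capitals. It was not found in the windows of Olfr90, Olfr93, Olfr101, Olfr107 and Olfr109, the 5 members with a RefSeq window. Of all 32851 windows of this length 4.84% held it, and of the 948 windows of Olfr genes 18.0%.

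Values below are scaled counts, that is counts set to common positive controls and then to the 5 reference genes Adcy3, Ano2, Cnga2, Gnal and Omp over all 30 lanes. These 5 genes are signal transduction components and a marker of mature olfactory sensory neurons, and all 5 were high in every lane, with Ano2, the calcium-activated chloride channel of the cilia, between 5982 and 7576 scaled counts. The sum of OR counts per lane ran from 618163 to 1013430. The background of a lane, the mean of its 8 negative controls plus 2 SD, ran from 32.4 to 56.2 scaled counts and was not subtracted. All members exceeded it in every lane with a count. Olfr90 had no count on MK38 in the table, which left it with 18 mice, whereas the other 6 members had counts in all 30.

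**Figure D1:**
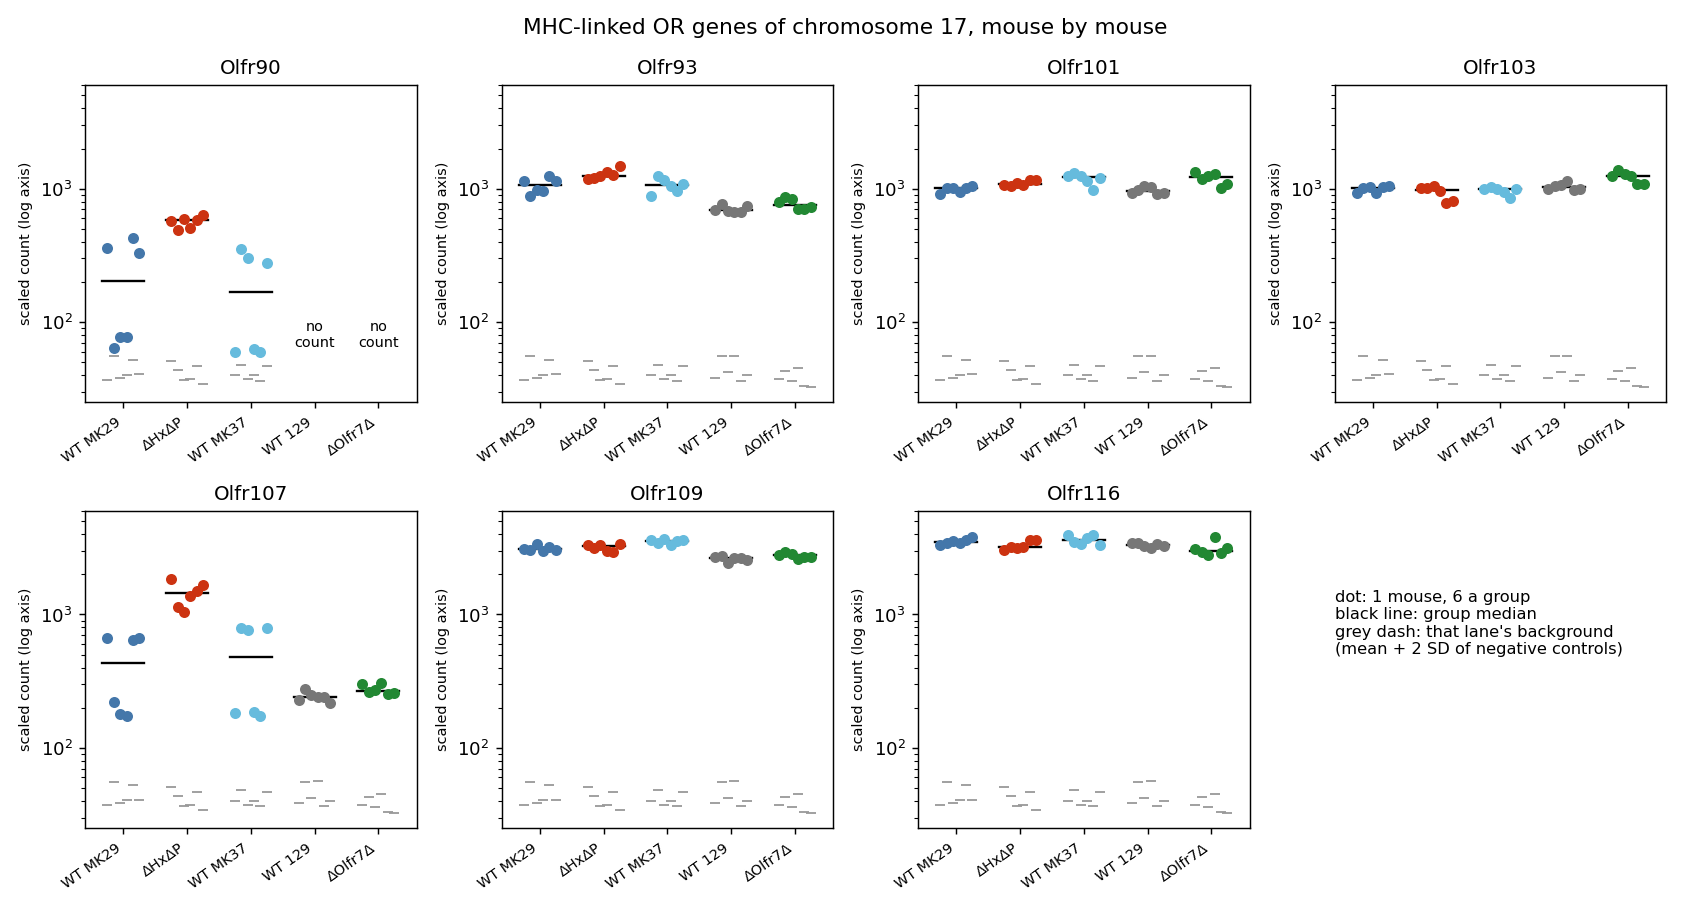
Scaled counts on a log axis for the 7 members, 1 dot for each mouse and 6 mice in each group, with the group median as a black line and the background of each lane as a grey dash. Olfr107 and Olfr90 split the wild types of MK29 and MK37 into 3 low and 3 high mice each. The other 5 members range at most 1.42-fold within any group, though Olfr93 shifts between groups.

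By the SD within a cartridge, pooled over MK29 and MK37, Olfr107 and Olfr90 differed between mixed wild types more than any other OR gene. They did so in the same mice. Both were chosen for their low and high sets in these mice, so this is a description. In the 6 wild types of MK29, Olfr107 gave 174, 179 and 222 scaled counts in 3 mice and 639, 665 and 668 in the others. In the 6 wild types of MK37 it gave 172, 182 and 186 in 3 mice and 767, 787 and 797 in the others. No wild-type mouse of mixed background fell between 222 and 639 scaled counts. All 6 ΔHxΔP mice lay higher still, at 1047, 1135, 1381, 1512, 1655 and 1850 scaled counts.

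Olfr90 gave 63.5, 77.3 and 77.4 scaled counts in 3 wild types of MK29 and 332, 361 and 426 in the others. On MK37 it gave 59.2, 59.8 and 62.6 in 3 mice and 276, 304 and 356 in the others. The low values stood at 1.14 to 2.01 times the background of their lanes, so that these 6 mice were close to the floor of the assay. With the background subtracted they held 8.01 to 38.9 scaled counts, against 229 to 374 in the 6 high wild types. In ΔHxΔP mice Olfr90 lay between 492 and 637 scaled counts, above every wild type.

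When the 18 mixed-background mice were ordered by Olfr107, the largest gap between neighbours was 1.52 on the log2 scale, a step of 2.88-fold between the mice at its edges, and it left 6 mice below and 12 above. For Olfr90 the largest gap was 1.82, a step of 3.57-fold, again with 6 below and 12 above. The second largest gaps were 0.39 and 0.28, and the median largest gap over the 558 OR genes with counts in these mice was 0.17. The same 6 mice were low in both genes, 3 of MK29 and 3 of MK37, no mouse was low in only one of them, and no ΔHxΔP mouse was low. The 6 low mice were 4 females and 2 males, and the 6 high wild types 3 females and 3 males. The sets were read off these values, so the size of the gap was not tested.

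**Figure D2:**
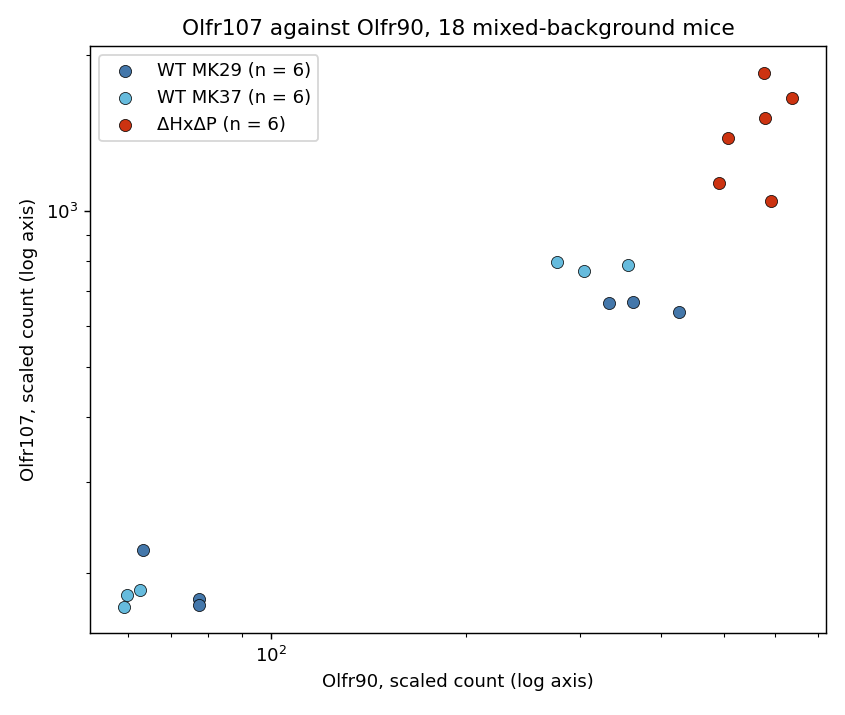
Olfr107 against Olfr90 in scaled counts, both axes log, 1 dot for each of the 18 mixed-background mice. The 6 low wild types sit at 172 to 222 for Olfr107 and 59.2 to 77.4 for Olfr90, the 6 high wild types at 639 to 797 and 276 to 426, and the 6 ΔHxΔP mice above these on both axes.

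Over the 18 mice the largest gap of Olfr90 ranked 11 and that of Olfr107 ranked 18 among the 558 OR genes, and over the 12 wild types alone they ranked 4 and 6. Only in these 2 of the 558 genes did the largest gap over the 12 wild types separate these 6 mice from the other 6. The 6 mice were set by the gap of Olfr107 itself, and both genes were chosen for that split. Their ranks and the match are therefore a description, and nothing is read from them.

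Of the nearby genes, Olfr93 ordered the same mice alike and Olfr91 in reverse, both over far smaller ranges. When the 12 wild types were ordered by each OR gene in turn, the same 6 mice came lowest in Olfr107, Olfr90 and Olfr93, and highest in Olfr91. These 4 of 558 OR genes (0.717%) all lie on chromosome 17, and Olfr90, Olfr91 and Olfr93 follow each other in gene order. Olfr107 and Olfr90 were in this count in advance, because the 6 mice are those low in both. Only Olfr93 and Olfr91 add to it. Olfr93 gave 876 to 1055 scaled counts in these 6 mice and 1093 to 1243 in the other 6, so that the nearest mice of the sets were 0.05 apart on the log2 scale. Olfr91 ran the other way, with 1278 to 1430 in the mice low in Olfr107 and 895 to 1211 in the others, 0.08 apart. In Olfr101, Olfr103, Olfr109 and Olfr116 between 2 and 4 of these mice were among the 6 lowest. Of the other OR genes of the chromosome, Olfr63, Olfr96 and Olfr137 had 5 of them there. The rest apart from Olfr91 had 2 to 4. How many of all OR genes reach 5 was not counted. The order was looked up after the sets had been seen and is a description.

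The pattern of Olfr90 over the 18 mice was closest to that of Olfr107 by the root mean square difference of log2 values centred on the mean of each gene. That difference was 0.31 between both genes, against root mean squares of 1.32 for Olfr90 and 1.23 for Olfr107 themselves and a median of 1.35 from Olfr90 to the other OR genes. The next closest to Olfr90 were Olfr355 at 0.99 and Olfr137, an OR gene farther along chromosome 17, at 1.06. For Olfr107 the same genes followed Olfr90, at 0.91 and 0.97. Olfr355 had medians of 562 scaled counts in the wild types of MK29, 318 in those of MK37 and 1005 in ΔHxΔP mice, and did not part the wild types of 1 cartridge the way both members did. It lay on the same side of its mean as Olfr90 in 13 of the 18 mice, whereas Olfr107 did so in all 18. Olfr107 and Olfr90 were chosen because they part these mice, so their likeness was given in advance and nothing is read from it. These distances describe likeness over 18 mice that share cartridges and scaling.

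The spread between wild types put the same 2 genes at the top, which follows from how they were chosen. The SD of log2(scaled count + 1), pooled over the wild types of both cartridges, was 1.29 for Olfr90 and 1.08 for Olfr107, ranks 1 and 2 of 558 OR genes with a median of 0.14. The other 5 members had SDs of 0.18 for Olfr93, 0.12 for Olfr101, 0.09 for Olfr103, 0.05 for Olfr109 and 0.09 for Olfr116. Olfr109, between Olfr107 and Olfr116 in gene order, thus ranked 555 of 558.

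**Figure D3:**
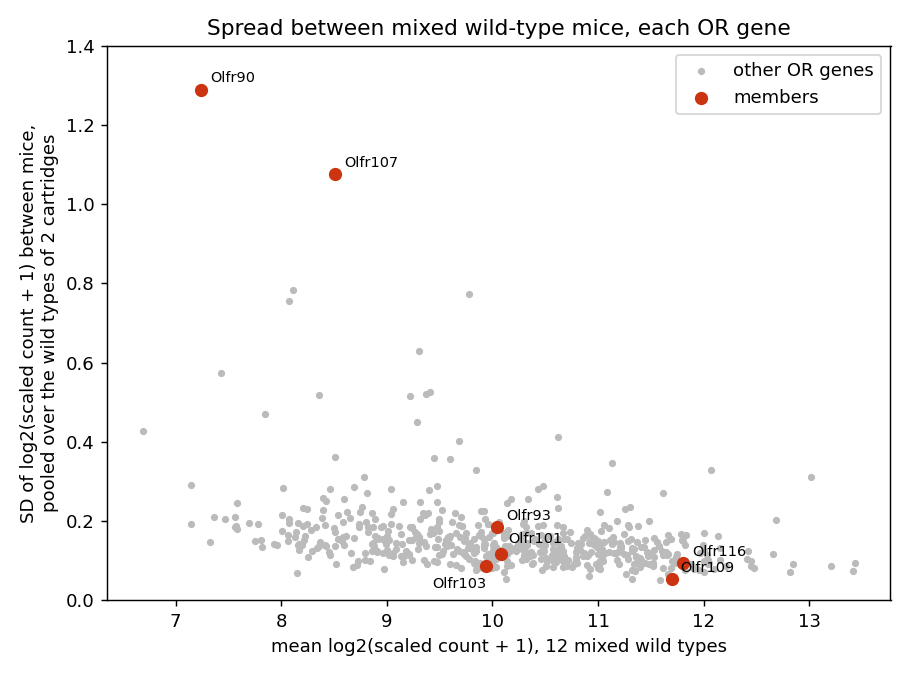
SD of log2(scaled count + 1) between mice of a cartridge, pooled over the wild types of MK29 and MK37, against the mean of log2(scaled count + 1) in these 12 mixed wild types. Each OR gene is 1 dot, with the 7 members in red. Olfr90 at 1.29 and Olfr107 at 1.08, chosen for their low and high sets in these mice, stand above all other OR genes. The other 5 members lie at or under 0.18.

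In the other groups Olfr107 varied far less. Its SD of log2 values was 0.32 in the 6 ΔHxΔP mice, 0.12 in the 6 wild types of 129 background and 0.11 in the 6 ΔOlfr7Δ mice, where the medians over all OR genes were 0.18, 0.11 and 0.14. For Olfr90 the SD in ΔHxΔP mice was 0.14. The 129 wild types held 215 to 274 scaled counts of Olfr107 with a median of 240, and the ΔOlfr7Δ mice 254 to 304 with a median of 268. All inbred mice but the lowest, at 215, thus lay in the gap of the mixed wild types between 222 and 639, nearer to the low set than to the high set.

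Set against the 12 mixed wild types, the 6 wild types of 129 background had lower counts of Olfr93, of the MOR256 subfamily, and of Olfr109, of the MOR250 subfamily. Olfr93 ran from 665 to 764 scaled counts in the 129 wild types and from 876 to 1243 in the mixed wild types. Olfr109 ran from 2421 to 2761 against 3011 to 3663. The groups overlapped in the other 4 members with counts, Olfr101, Olfr103, Olfr107 and Olfr116. Groups that did not overlap were found for 38.3% of the 549 OR genes compared, and 2 of 6 members is close to that share. Strain and cartridge cannot be told apart here.

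In ΔHxΔP mice 3 members stood higher than in the 12 mixed wild types by the threshold that limma sets over all OR genes (Benjamini-Hochberg adjusted value under 0.05), namely Olfr107, Olfr90 and Olfr93, and no member stood lower. Over all 557 OR genes tested 10.2% were higher and 23.9% lower, the latter with genes of the clusters next to the deleted elements among them. The log2 difference was 1.94 for Olfr107, a FC of 3.84 (95% interval 2.20 to 6.70), and 1.90 for Olfr90, a FC of 3.72 (1.93 to 7.19). They were the 2 largest increases among the 557 genes. Nothing is read from these counts, intervals or ranks, because the rule that chose the members used these mice.

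The wild types fell into separate sets, so their mean lies where no mouse was measured. For Olfr107 the lowest ΔHxΔP mouse had 1047 scaled counts and the highest wild type 797, and for Olfr90 these values were 492 and 426. Groups that did not overlap were found for 9.14% of OR genes in this comparison, and for 2 of the 7 members. For the members this is a description too, for the same reason. Within cartridge MK29 the log2 difference was 1.98 ± 0.34 (SE, 6 against 6 mice) for Olfr107 and 1.77 ± 0.42 for Olfr90. Against the MK37 wild types alone it was 1.90 ± 0.40 and 2.02 ± 0.43.

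Olfr93 was higher in ΔHxΔP mice by 0.28 on the log2 scale, a FC of 1.21 (95% interval 1.08 to 1.36), with 1192 to 1482 scaled counts in the mutants against 876 to 1243 in the wild types, so that the groups overlapped. Its difference was 0.28 against MK29 and 0.27 against MK37. The 4 remaining members were close to the wild types. Olfr101 differed by 0.03 (95% interval -0.13 to 0.19), Olfr103 by -0.08 (-0.22 to 0.07), Olfr109 by -0.06 (-0.17 to 0.05) and Olfr116 by -0.12 (-0.23 to -0.00221). Olfr101 ran from 1057 to 1159 scaled counts in the mutants, above all MK29 wild types at 910 to 1052 but inside the range of the MK37 wild types at 977 to 1301.

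By the threshold of tTREAT, the gene-wise method of the study against a FC of 1.5, which 4.13% of OR genes passed, the list of passing genes held 1 member, Olfr107, and nothing is read from that either. Of the 10 other OR genes of chromosome 17, limma called 2 higher and 2 lower in ΔHxΔP mice. Olfr91, next to Olfr90 in gene order and also of the MOR256 subfamily, was lower, with a log2 difference of -0.60 (limma adjusted p = 0.000995). It had 606 to 987 scaled counts in the mutants and 895 to 1430 in the wild types. Olfr63, on the other side of Olfr90 in gene order, was higher by 0.29 (limma adjusted p = 0.0362). Its mutants, at 763 to 830 scaled counts, lay inside the range of the MK29 wild types, at 587 to 886. They lay above the MK37 wild types, at 535 to 669, which ran on another cartridge.

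**Figure D4:**
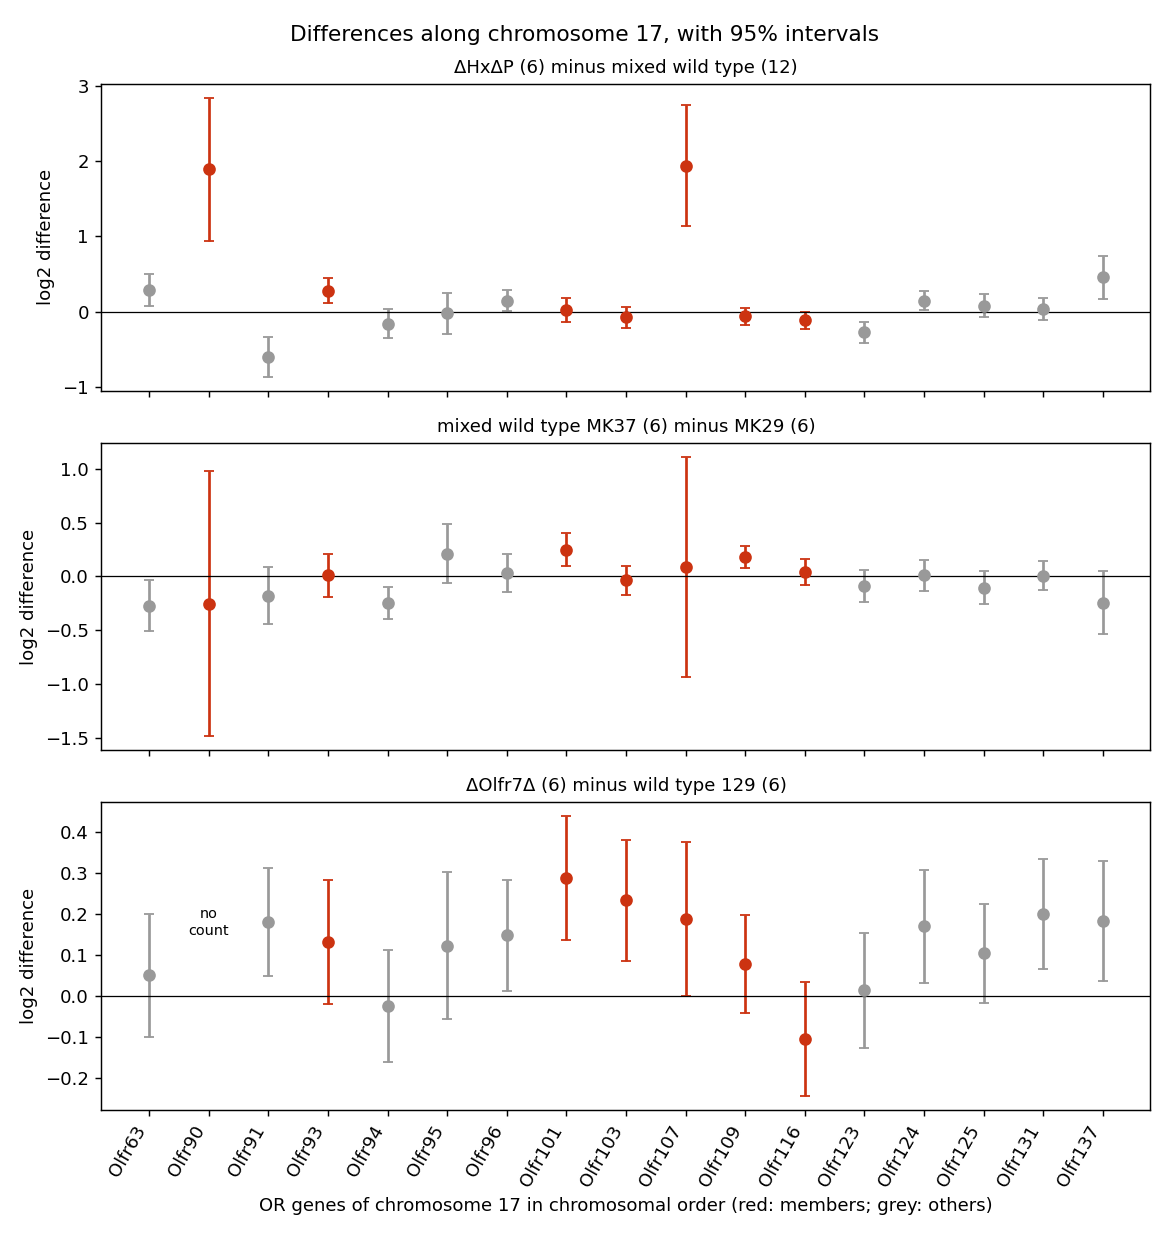
Log2 differences with 95% intervals for the 17 OR genes of chromosome 17 with counts, in gene order, members in red. In the comparison of ΔHxΔP mice with mixed wild types Olfr90 at 1.90 and Olfr107 at 1.94 have the largest differences, whereas of the genes between them Olfr91 stands at -0.60, Olfr93 at 0.28, Olfr101 at 0.03 and Olfr103 at -0.08.

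The wild types of MK37 and MK29, which also served in the comparison above, show how far wild-type groups lay apart. For Olfr107 and Olfr90 both groups held 3 low and 3 high mice, and the log2 differences, MK37 minus MK29, were 0.09 (95% interval -0.94 to 1.11) and -0.26 (-1.49 to 0.98). Olfr101 was higher on MK37 by 0.25 and Olfr109 by 0.18, and these 2 of 7 members passed the limma threshold. In this comparison 29.3% of OR genes were higher and 10.8% lower, so 2 of 7 is close to the share called higher. With median of ratios over OR genes as the scaling neither member passed (0 in place of 2), and 44.4% of all calls were higher in place of 73.1%. Nothing is read from these calls of members, because the rule that chose them used these mice. Olfr109 ran from 3011 to 3349 scaled counts on MK29 and from 3338 to 3663 on MK37. No member had groups that did not overlap, against 20.1% of OR genes. Among the other 10 OR genes of the chromosome, only Olfr94 was called, and it was lower.

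The low and high sets did not draw on the inbred mice, and there the 6 members with counts were tested. In ΔOlfr7Δ mice 2 of the 6 rose against the 129 wild types, and none fell, at an unadjusted p under 0.05 either. The 2 were Olfr101 and Olfr103, both of the MOR250 subfamily and next to each other in gene order. Olfr109, also of that subfamily, did not pass. Among the 552 OR genes tested 23.4% were higher and 12.1% lower, the latter mostly genes of chromosome 9, which holds the deletion. Outside chromosome 9 these shares were 25.5% and 5.92% of 490 genes. With 6 members, 2 called higher is near that share, so the count is not read as a trait of the members. Olfr101 ran from 1005 to 1333 scaled counts with a median of 1221 in ΔOlfr7Δ mice and from 906 to 1051 with a median of 962 in wild types. It rose by 0.29 ± 0.07 (SE) on the log2 scale, a FC of 1.22 (limma adjusted p = 0.00287, 6 against 6 mice). Olfr103 ran from 1081 to 1391 with a median of 1253 against 976 to 1151 with a median of 1028. It rose by 0.23 ± 0.07, a FC of 1.18 (limma adjusted p = 0.0116). The groups overlapped in both genes, as in all 6 members tested, whereas 18.2% of OR genes, and 12.4% of those outside chromosome 9, had groups that did not overlap.

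For the other 4 members the difference did not pass. Olfr107 differed by 0.19 ± 0.09 (limma adjusted p = 0.112), with an interval from 0.000650 to 0.38. Olfr93 differed by 0.13 ± 0.07 (limma adjusted p = 0.167), with 700 to 871 scaled counts against 665 to 764. Olfr109 differed by 0.08 ± 0.06 (limma adjusted p = 0.305), with 2621 to 2928 against 2421 to 2761. Olfr116 differed by -0.10 ± 0.07 (limma adjusted p = 0.244), with 2804 to 3820 against 3176 to 3461. Without the ΔOlfr7Δ mouse at 3820 its difference was -0.16 and passed.

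The median log2 difference was 0.16 over the 6 members, 0.06 over all 552 OR genes and 0.14 over the 10 other OR genes of chromosome 17, of which 4 were called higher and none lower. By tTREAT against a FC of 1.3 no member passed the unadjusted threshold of 0.01. Of all OR genes 6.88% passed, all of them on chromosome 9, and outside it 0% did. The absolute differences of all 6 members were under that FC and each unadjusted p was 1. The reference genes that set the scale were themselves 0.18 higher on the log2 scale in ΔOlfr7Δ mice before that step (exact two-sided permutation test, p = 0.0628, 6 against 6 mice). Scaled by positive controls alone, the median of all OR genes was 0.24 and 5 members passed. Relative to the median of all OR genes, Olfr101 stood 0.22 and Olfr103 0.17 higher in ΔOlfr7Δ mice, and Olfr116 0.17 lower (-0.17).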

How the data were processed

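NanoString counts of 564 OR genes in RNA of 30 mice were used. Per the labels and file headers the authors deposited 1 table of raw counts, with no scaling and no background subtraction, and the lane of each column was taken from its key lines. The table was recorded as a value of other kind, because empty cells and key lines stand among the counts, and count models (edgeR, DESeq2) were therefore not run. The probes and labels name no genome build.

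A factor per lane set the 6 positive controls to 1 geometric mean, and a further factor did so for the 5 reference genes, over all 30 lanes. limma 3.58.1 in R 4.3.3, with a mean-variance trend, was fitted to log2(scaled count + 1) of OR genes whose wild-type median was at least 100 above the background, in 2 groups at a time, with Benjamini-Hochberg adjustment over all these genes at 0.05. All members with counts passed that filter. For Olfr90 in the mixed wild types the median was 134 above the background, a value between its low and its high mice. It thus passed only through the high set. tTREAT was rewritten from the functions of the study, on the same values. Other steps used Python 3.11.15 and scipy 1.17.1. This fit was tested on simulated data with known changes. Counts of the 75 pairs of mice within groups differed beyond sampling noise (chi-square per degree of freedom of at least 4.22), so no lane was counted as a repeat of another. P-values measure the spread between mice. Precision is limited by the 6 mice of a group, and low values by the lane background.

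The members, the lists and the neighbours named were chosen with earlier results of these data known. Named were the 7 members, the OR genes beside Olfr90 and Olfr107 in gene order, and the genes closest to both in pattern. Olfr94, Olfr96 and the genes of the closest probes were named after their values were seen. Olfr108, next to Olfr107 in gene order, was not analysed here. The alternatives were other scalings, pseudocounts, background subtraction, no filter, sex, cartridge or lane as a term, an unmoderated model, and leaving out each mouse.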

Additional observations from a re-analysis of the deposited data

Results flagged for a closer look

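Over the 33 sets of 6 mice formed by the members and groups with counts, 1 held a mouse far from the others, where chance gives about 1 in 20. Olfr116 was at 3820 scaled counts in replicate 4 of the ΔOlfr7Δ group, against 2804 to 3133 in the other 5 mice. The gap was 0.676 of the range of the group.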

How the results depend on the processing

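In the comparison of ΔOlfr7Δ mice with 129 wild types, Olfr101 and Olfr103 kept their direction and their call under all 20 alternatives, with log2 differences of 0.23 to 0.47 and 0.18 to 0.41. Scaling by positive controls alone called 324 OR genes and 5 members in place of 196 and 2, brought Olfr93, Olfr107 and Olfr109 past the threshold, and turned Olfr116 to 0.0756. Of the calls, 65.8% were higher under the reference genes, 87.3% under positive controls alone and 51.4% under median of ratios. Olfr116 passed as lower under median of ratios (-0.16), and Olfr107 passed with the background subtracted (0.27). Leaving out 1 mouse at a time gave 160 to 210 OR genes and 2 to 3 members called.

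Between ΔHxΔP mice and mixed wild types, the log2 difference was 1.84 to 2.13 for Olfr107 and 1.73 to 2.69 for Olfr90 over 29 alternatives. Each called 3 members, but the MK37 wild types alone gave 4. The member added there was Olfr109, which was lower in the mutants (-0.15). Nothing is read from these calls of members, because the rule that chose them used these mice. Leaving out 1 mouse gave 169 to 196 OR genes and 3 members. Calls were 30% higher under the reference genes, 41.7% under positive controls alone and 54.4% under median of ratios. tTREAT against a FC of 1.3 passed 2 members in place of 1. Olfr101 turned sign against the MK37 wild types alone (-0.10), and Olfr109 did so within MK29 (0.03).

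Between the wild-type groups, median of ratios called none of the members (0 in place of 2). Calls were 73.1% higher under the reference genes and 87.1% under positive controls alone. Leaving out 1 mouse gave 203 to 231 OR genes and 2 members. With lane number as a replicate block, which pairs mice by lane position only, 208 OR genes and 2 members were called, against 223 and 2. Nothing is read from these calls of members either, for the same reason. The difference of Olfr107 changed sign in 7 of 21 alternatives. The low and high sets of Olfr107 and Olfr90 held the same mice with a pseudocount of 10 and under positive controls alone. The cause of these changes was not tested. edgeR and DESeq2 were not run. Olfr90 in the low mice was limited by the background.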
